A study of Mus musculus with 12 samples.

Results

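The comparison described here set aortic valve leaflets with a double deletion (DKO, 3 libraries) against leaflets with a smooth muscle deletion alone (SMKO, 3 libraries), 6 of the 12 RNA sequencing libraries of the series. It asked what endothelial deletion added on a smooth-muscle-deleted background. The members were taken from the group names in the column headers of the deposited count table, and the measured values played no part in which libraries were members. The comparison itself was chosen with earlier results of these data known. Leaving SMKO 2 out in a further fit was decided from its values. All mice were 2 months old and of a mixed C57BL/6J;129SvEv strain. The 6 other libraries were 3 of an endothelial deletion alone (ECKO) and 3 controls (CTRL). They entered this comparison through the gene filter, the scaling and the shared spread, and gave background levels. They also served to test whether endothelial deletion acted differently with and without smooth muscle deletion. The labels name the groups by code, without the deleted gene, the allele or the Cre driver, so which cells recombined is not stated. In the study as it is known, the gene is fibulin-4 (Efemp2), deleted in smooth muscle cells in both groups compared here and also in endothelial cells in DKO. Whole leaflets were cut by laser from fixed, stained frozen sections, so each library averages over endothelial, interstitial and resident immune cells. The libraries are described as biological triplicates with no animal named for any of them, and the p-values measure the spread between these libraries.

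Fibulin-4 is a secreted glycoprotein that brings lysyl oxidase to tropoelastin, so that elastin is crosslinked on fibrillin microfibrils. Valve leaflets have an endothelial surface over a core of interstitial cells, which lay down collagen, proteoglycan and elastin in layers. Endothelial signals, Notch1 among them, are known to restrain matrix production and mineralization by the interstitial cells below. Matrix stiffness and TGF-beta act on interstitial cells through targets such as Ccn2 and the collagens.

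Library totals were 247718, 455478 and 260449 counts for DKO 1, 2 and 3, and 530233, 263589 and 74827 counts for SMKO 1, 2 and 3. At these depths 1 count was worth 1.99 to 4.54 CPM in DKO and 1.70 to 13.8 CPM in SMKO, where CPM is TMM-scaled counts relative to the library total. The share of mitochondrially encoded counts was 20.7%, 10.5% and 20.98% in DKO 1, 2 and 3, and 15.1%, 24.1% and 28.5% in SMKO 1, 2 and 3. Y-linked counts came to 28 in DKO 3 and 89 in SMKO 1, and to at most 1 in each of the other 4. The valve interstitial markers, 8 genes that include the type I and III collagens, decorin and lumican, were all detected and summed to 45559.6, 33070.3 and 31597 CPM in DKO 1, 2 and 3, against 29882, 50582 and 21063 CPM in SMKO 1, 2 and 3. The 7 endothelial markers were also all detected.

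Efemp2 (ENSMUSG00000024909), the gene taken to be the target, had 0 counts in each DKO library, and 4, 0 and 0 counts in SMKO 1, 2 and 3. It therefore did not distinguish the groups at this depth. Pooled, DKO lay below a floor of 3 counts, 3.11 CPM, and SMKO stood at 4.68 CPM (95% exact Poisson interval 1.27 to 11.98, counting error only). The exact two-sided permutation test gave p = 1. With a count in SMKO 1 alone, every split of the libraries gives the same absolute difference, so no other p was possible and the test decides nothing. For background, ECKO libraries held 3, 15 and 8 counts and CTRL libraries 58, 23 and 9. Mus81 overlaps Efemp2 on the opposite strand, and the deleted exons are not stated.

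No gene passed in DKO against SMKO when all libraries were kept. Of 6296 genes tested with edgeR's quasi-likelihood test, 0 were higher (0%) and 0 lower (0%) at an adjusted p (Benjamini-Hochberg) under 0.05, and the smallest adjusted p was 0.235. At an unadjusted p under 0.05 there were 396 genes (6.29%), 210 higher (3.34%) and 186 lower (2.95%). In 601 genes (9.55%) the 3 DKO libraries did not overlap the 3 SMKO libraries, 360 higher (5.72%) and 241 lower (3.83%). DESeq2 called 3 of 6293 genes (0.0477%), Ccn2 higher and Igf2 and Myoc lower. Limma-voom called 0, and with library weights it called 24 (0.381%). The genes named next are the 12 of smallest p in each direction whose libraries did not overlap and whose mean reached 20 CPM in either group. None of the 24 passed the adjustment (adjusted p from 0.235 to 0.443), and the rule fixes their separation.

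Among the genes higher in DKO, the smallest p belonged to Ccn2 (ENSMUSG00000019997), a secreted matricellular protein induced by TGF-beta and by YAP. It stood at 3632, 2953 and 2521 CPM in DKO 1, 2 and 3, against 664, 1802 and 566 CPM in SMKO 1, 2 and 3. The lowest DKO library lay above the highest SMKO library, SMKO 2, and the other 2 SMKO libraries lay far below it. The log2 fold change was 1.58 ± 0.37 (SE; adjusted p = 0.260). Levels in the other groups were 1008 ± 189 CPM in ECKO and 1080.1 ± 291 CPM in CTRL (SD, n = 3 each).

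Transferrin, the plasma carrier of iron encoded by Trf, had transcript levels of 795, 544 and 1062 CPM in DKO 1, 2 and 3, against 267, 534 and 276 CPM in SMKO 1, 2 and 3. DKO 2 and SMKO 2 nearly met, and the log2 fold change was 1.14 ± 0.30 (adjusted p = 0.300). Hyou1, a chaperone of the endoplasmic reticulum, stood at 59.0, 63.7 and 49.8 CPM in the DKO libraries, against 13.6, 25.7 and 0 CPM in the SMKO libraries, with a log2 fold change of 1.91 ± 0.50 (adjusted p = 0.300). Nppc encodes C-type natriuretic peptide, an endothelial relaxing factor. It measured 86.3, 47.8 and 53.9 CPM in the DKO libraries, against 10.2, 30.8 and 13.8 CPM in the SMKO libraries, with a log2 fold change of 1.90 ± 0.50 (adjusted p = 0.300). Fgf1, a fibroblast growth factor, measured 54.5, 77.7 and 62.2 CPM in the DKO libraries, against 15.3, 35.9 and 13.8 CPM in the SMKO libraries, and its log2 fold change was 1.67 ± 0.48 (adjusted p = 0.392). SMKO 2 was the SMKO library nearest to DKO for each of these 5 genes.

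Cdc42ep3, a Cdc42 effector counted among YAP targets, stood at 90.8, 125 and 70.5 CPM in DKO 1, 2 and 3, against 39.1, 41.1 and 41.4 CPM in SMKO 1, 2 and 3. Its SMKO libraries lay close together, SMKO 2 between the others, and its log2 fold change was 1.30 ± 0.35 (adjusted p = 0.300). Sash1, a scaffold protein of endothelial signalling, had SMKO 2 as its lowest library, at 341, 291 and 178 CPM in the DKO libraries, against 146, 87.3 and 96.6 CPM in the SMKO libraries (log2 fold change 1.20 ± 0.31, adjusted p = 0.300). The remaining 5 were Frmd4a, Ankrd33b, Rnf214, Timm8b and Wwp2, with log2 fold changes of 2.72, 2.90, 1.79, 1.99 and 0.98. Wwp2, a ubiquitin ligase, was the most abundant of these, at 154, 157 and 141 CPM in the DKO libraries, against 66.4, 97.6 and 69.0 CPM in the SMKO libraries. The other 4 reached at most 72.6 CPM in any library and had a count of 0 in SMKO 2 or SMKO 3, so their fitted folds rest on few counts.

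Among the genes lower in DKO, the smallest p belonged to Cd36 (ENSMUSG00000002944), a scavenger receptor for fatty acids and thrombospondin found on capillary endothelium and macrophages. It stood at 4.54, 19.9 and 8.29 CPM in DKO 1, 2 and 3, against 76.6, 46.2 and 27.6 CPM in SMKO 1, 2 and 3, and its counts were 1, 10 and 2 against 45, 9 and 2. The highest DKO library lay below the lowest SMKO library. The log2 fold change was -2.18 ± 0.46 (adjusted p = 0.235). Myoc (ENSMUSG00000026697), the secreted glycoprotein myocilin, stood at 22.7, 37.8 and 29.0 CPM in DKO 1, 2 and 3, against 265, 51.4 and 235 CPM in SMKO 1, 2 and 3. SMKO 2 lay close to the DKO libraries and SMKO 1 and 3 far above them, and the log2 fold change was -2.56 ± 0.49 (adjusted p = 0.235).

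Notch1, the receptor whose loss is known to predispose to valve calcification, stood at 86.3, 53.8 and 87.1 CPM in DKO 1, 2 and 3, against 146, 103 and 276 CPM in SMKO 1, 2 and 3. All SMKO libraries lay above all DKO libraries, SMKO 2 least, with a log2 fold change of -1.10 ± 0.31 (adjusted p = 0.392). Fzd4, a Wnt receptor of endothelium, measured 4.54, 11.9 and 16.6 CPM in the DKO libraries, against 52.7, 20.5 and 55.2 CPM in the SMKO libraries (log2 fold change -1.90 ± 0.56, adjusted p = 0.392). Efna1, an ephrin ligand, measured 9.08, 13.9 and 16.6 CPM in the DKO libraries, against 40.8, 25.7 and 138 CPM in the SMKO libraries (log2 fold change -1.86 ± 0.53, adjusted p = 0.392). These receptors and ligands rest on counts of 1, 6 and 4 against 31, 4 and 4 for Fzd4 and 2, 7 and 4 against 24, 5 and 10 for Efna1, in the order DKO 1 to 3 against SMKO 1 to 3.

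Fmnl2, a formin that nucleates actin filaments, stood at 27.2, 19.9 and 37.3 CPM in DKO 1, 2 and 3, against 98.7, 66.8 and 69.0 CPM in SMKO 1, 2 and 3, with the 3 SMKO libraries close together, and its log2 fold change was -1.65 ± 0.37 (adjusted p = 0.235). The replication-dependent histone gene H2ac18 had no count in any DKO library, against 17, 11 and 5 counts in SMKO 1, 2 and 3. Its mean of 51.5 CPM in SMKO was at least 16.5-fold higher than 3.11 CPM, the level that 3 counts pooled over DKO would give. Near-identical histone genes can share its reads, so its count is uncertain. Tab2, Celf2, Prrg1, Ssbp2 and Nampt were the others, with log2 fold changes of -1.38, -1.12, -1.77, -1.45 and -1.21. Celf2 is an RNA-binding splicing regulator and Nampt an enzyme of NAD synthesis. Tab2, an adaptor of the TAK1 kinase, measured 18.2, 27.9 and 29.0 CPM in the DKO libraries, against 69.8, 56.5 and 82.8 CPM in the SMKO libraries. SMKO 2 was the SMKO library nearest to DKO in 8 of the 12 higher and 8 of the 12 lower genes, against 2 and 1 for SMKO 1 and 2 and 3 for SMKO 3.

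**Figure D1:**
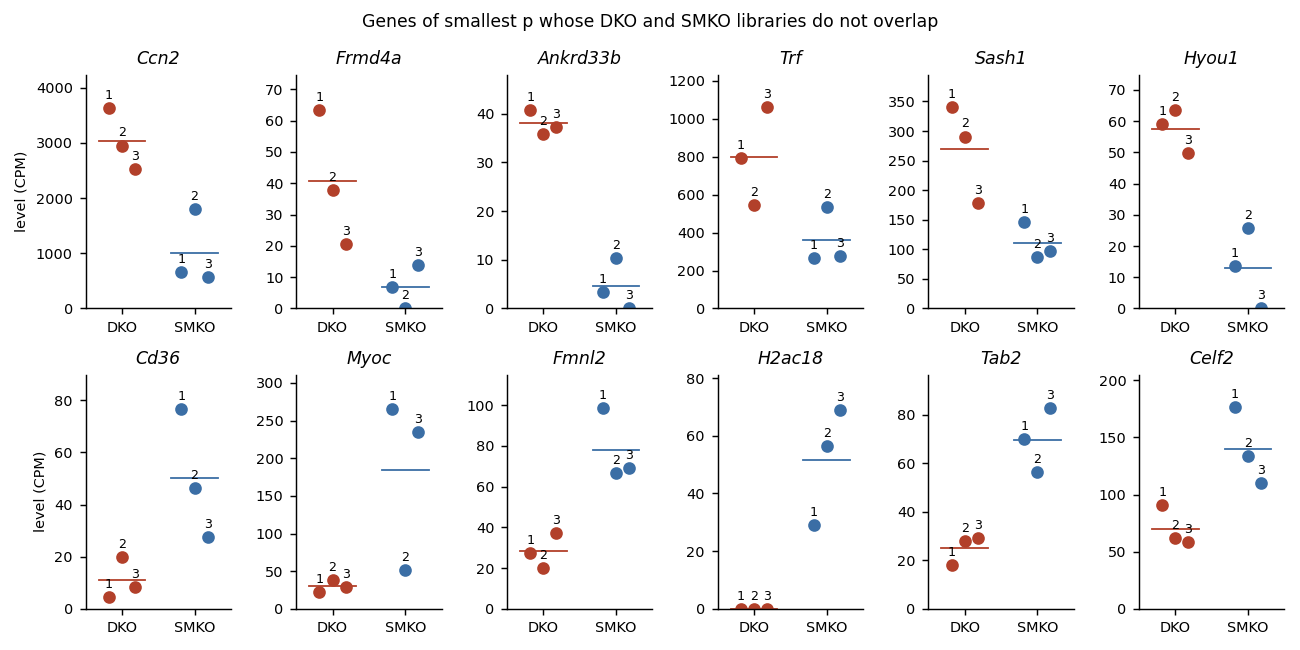
Level in CPM of the 6 genes of smallest p higher (top row) and lower (bottom row) in DKO, among genes whose libraries do not overlap. Each point is 1 library with its replicate number, the line is the group mean, and axes start at 0. SMKO 2 lies toward DKO for Ccn2, Trf, Hyou1 and Myoc, and within or below the other SMKO libraries for Sash1 and Celf2.

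SMKO 2 lay nearer to DKO than to the rest of its own group. Over 1514 tested genes with a mean of at least 100 CPM in the 6 libraries, SMKO 2 was closer to the DKO mean than to the mean of the other 2 SMKO libraries in 1091 genes (72.1%). The same share was 48.9% for SMKO 1 and 48.9% for SMKO 3. Each DKO library was closer to the SMKO mean than to its own group in 40.9%, 42.6% and 54.3% of genes for DKO 1, 2 and 3. On log2(CPM + 1), the root mean square difference of SMKO 2 was 0.571 from the DKO mean and 0.961 from the mean of SMKO 1 and 3. Against DKO and the rest of SMKO it was 0.646 and 0.707 for SMKO 1 and 1.03 and 0.974 for SMKO 3. Between single libraries, SMKO 2 lay 0.595, 0.649 and 0.711 from DKO 1, 2 and 3, and 0.918 and 1.20 from SMKO 1 and SMKO 3. SMKO 1 and SMKO 3 lay 0.936 from each other, so the SMKO libraries were far apart in every pair. SMKO 1 in turn lay 0.399 and 0.441 from ECKO 2 and ECKO 3, and 0.458 and 0.495 from CTRL 2 and CTRL 1. All of these were nearer to it than any DKO or SMKO library. ECKO 1 and CTRL 3 lay 0.747 and 0.765 from it. SMKO 3, the shallowest library, lay 0.828 or more from every other library. SMKO 2 also had the lowest TMM factor of the 12 libraries, 0.739, where the other 11 lay between 0.842 and 1.19. A low factor raises every CPM of a library relative to scaling by its total alone. The predicted gene Gm10800 held 0.123%, 0.184% and 0.0626% of counts in DKO 1, 2 and 3, against 0.0181%, 1.67% and 0.974% in SMKO 1, 2 and 3, and up to 2.98% in the ECKO and CTRL libraries. The part of these in the place of SMKO 2 was not tested. Efemp2 had 0 counts in SMKO 2 as in SMKO 3 and in all DKO libraries, so it does not tell SMKO 2 from either group.

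Leaving SMKO 2 out changed the result. With the remaining 11 libraries, 75 of 7627 genes were higher in DKO (0.983%) and 53 lower (0.695%), 128 in all (1.68%), with a smallest adjusted p of 3.71e-10. When the same fit was limited to the 6296 genes tested with all libraries, 110 passed. DESeq2 called 72 without SMKO 2, and 67 of these were among the 128. Leaving out any of the other 5 libraries of the pair, with SMKO 2 kept, gave 0 calls, and the smallest adjusted p without SMKO 1 was 0.996. SMKO 2 was singled out from its values, so the fit without it is an alternative and not a separate test of the comparison. In that fit the SMKO group consisted of SMKO 1 and SMKO 3, which differ in depth (530233 and 74827 counts) and in Y-linked counts (89 and 0). Leaving out a further library of the pair gave 47 calls without SMKO 1, 55 without SMKO 3, 64 without DKO 1, 57 without DKO 2 and 170 without DKO 3.

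**Figure D2:**
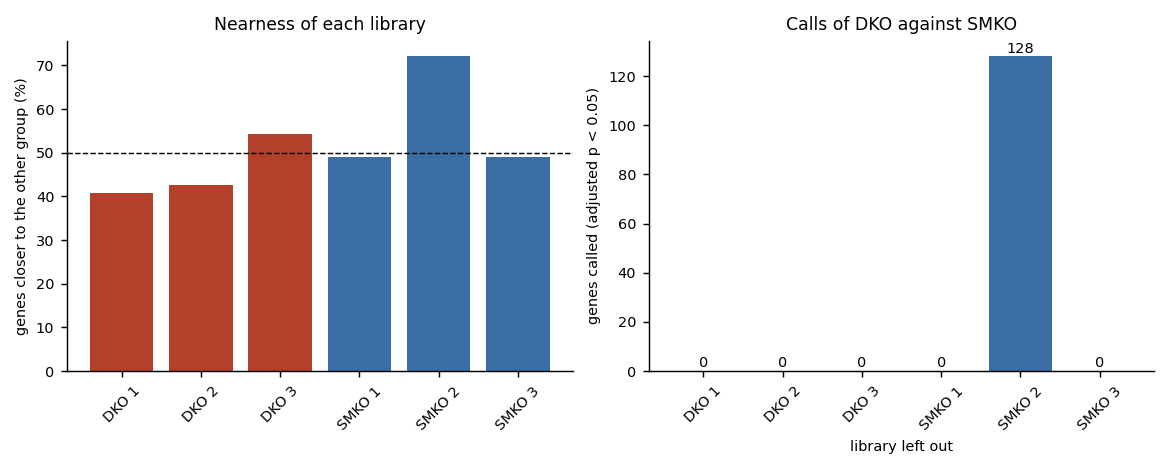
Left, share of 1514 genes (%) for which each library is closer to the mean of the other group than to the mean of the rest of its own group, with a dashed line at 50%. Right, genes called at adjusted p under 0.05 in DKO against SMKO when the named library is left out of the fit. SMKO 2 reaches 72.1% on the left, and of the 6 libraries it is the 1 whose omission gives calls, 128, on the right.

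Among the genes higher without SMKO 2, the smallest p belonged to Col8a1 (ENSMUSG00000068196), the short-chain collagen VIII of endothelial and interstitial matrix. It stood at 295, 323 and 261 CPM in DKO 1, 2 and 3, against 23.8, 344 and 13.8 CPM in SMKO 1, 2 and 3. In TMM-scaled CPM, SMKO 2 exceeded every DKO library while SMKO 1 and 3 lay far below all of them. The log2 fold change was 1.21 ± 0.84 with SMKO 2 (adjusted p = 0.896) and 3.68 ± 0.40 without it (adjusted p = 2.09e-07). Serpine2, a protease inhibitor of the matrix, stood at 436, 546 and 514 CPM in the DKO libraries, against 78.3, 698 and 110.4 CPM in the SMKO libraries. Timp1, an inhibitor of matrix metalloproteinases, stood at 377, 418 and 319 CPM in the DKO libraries, against 66.4, 452 and 55.2 CPM in the SMKO libraries. Without SMKO 2 their log2 fold changes were 2.52 ± 0.31 and 2.52 ± 0.32 (adjusted p = 2.15e-06 and 2.72e-06).

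Basement membrane collagens followed the same arrangement. Col15a1 measured 731, 539.7 and 493 CPM in the DKO libraries, against 141, 760.0 and 110.4 CPM in the SMKO libraries, and Col4a2 measured 563, 498 and 489 CPM in the DKO libraries, against 136, 734 and 138 CPM in the SMKO libraries. Their log2 fold changes without SMKO 2 were 2.14 ± 0.30 and 1.91 ± 0.28 (adjusted p = 2.41e-05 and 6.03e-05), against 0.76 and 0.59 with it. Sparc, a collagen-binding matricellular protein, measured 11732, 7506 and 12854 CPM in the DKO libraries, against 2731, 15775 and 2567 CPM in the SMKO libraries and was 2.02 ± 0.33 higher on the log2 scale without SMKO 2 (adjusted p = 0.000362). For all 6 of these matrix genes SMKO 2 lay above the highest DKO library in TMM-scaled CPM. That order depends on the scaling, as SMKO 2 had a TMM factor of 0.739, which raises its CPM. Scaled by library total alone, SMKO 2 lay within the DKO range for each of the 6.

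Ccn2 was 1 of 8 higher genes of the first list, which separate from SMKO 2 as well, that passed without it. Its log2 fold change without SMKO 2 was 2.29 ± 0.31 (adjusted p = 8.74e-06). Ly6a, the surface antigen Sca-1 of progenitor and endothelial cells, measured 1199, 1408 and 1509 CPM in the DKO libraries, against 276, 1987 and 124 CPM in the SMKO libraries, with a log2 fold change of 2.62 ± 0.31 without SMKO 2 (adjusted p = 5.82e-07). Sqle and Fdps, enzymes of cholesterol synthesis named here after their values were seen, were also called higher, by 3.69 and 2.84 on the log2 scale (adjusted p = 0.0263 and 0.0184).

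Among the genes lower without SMKO 2, the smallest p belonged to Igf2 (ENSMUSG00000048583), a fetal growth factor. It stood at 4.54, 13.9 and 33.2 CPM in DKO 1, 2 and 3, against 607, 15.4 and 704 CPM in SMKO 1, 2 and 3. SMKO 2 lay within the DKO range, and SMKO 1 and 3 lay far above it. Levels were 372 ± 31.4 CPM in ECKO and 367 ± 141 CPM in CTRL (SD, n = 3 each). The log2 fold change was -4.65 ± 1.16 with SMKO 2 (adjusted p = 0.509; DESeq2 called it) and -5.24 ± 0.40 without it (adjusted p = 3.71e-10). Igfbp5 and Igfbp3 encode binding proteins of insulin-like growth factors. Igfbp5 measured 136, 193 and 53.9 CPM in the DKO libraries, against 808, 97.6 and 1049 CPM in the SMKO libraries, and Igfbp3 measured 27.2, 7.97 and 29.0 CPM in the DKO libraries, against 107, 0 and 138 CPM in the SMKO libraries. Their log2 fold changes without SMKO 2 were -2.80 ± 0.31 and -2.63 ± 0.46 (adjusted p = 4.57e-07 and 0.000757). Igfbp7, whose product is related to these binding proteins, was called in the other direction. It measured 14047, 8386 and 10155 CPM in the DKO libraries, against 3945, 16222 and 2705 CPM in the SMKO libraries, with a log2 fold change of 1.70 ± 0.34 without SMKO 2 (adjusted p = 0.00336).

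Myoc had a log2 fold change of -3.02 ± 0.33 without SMKO 2 (adjusted p = 2.33e-07). Enpp2, the lysophospholipase autotaxin, measured 109, 59.7 and 58.1 CPM in the DKO libraries, against 366, 41.1 and 386 CPM in the SMKO libraries (log2 fold change -2.35 ± 0.30, adjusted p = 3.69e-06). Ogn, a small leucine-rich proteoglycan, measured 36.3, 49.8 and 45.6 CPM in the DKO libraries, against 138, 46.2 and 207 CPM in the SMKO libraries (log2 fold change -1.80 ± 0.32, adjusted p = 0.000833), and Tnxb, a tenascin of collagen fibrils, measured 13.6, 11.9 and 8.29 CPM in the DKO libraries, against 68.1, 5.14 and 96.6 CPM in the SMKO libraries (log2 fold change -2.69 ± 0.48, adjusted p = 0.00102). Tnxb had 1 count in SMKO 2. Csrp2, a LIM protein of smooth muscle, and Gstt1, a glutathione transferase, had log2 fold changes of -1.72 ± 0.31 and -1.98 ± 0.36 (adjusted p = 0.00109 and 0.00113). The tenth lower gene, Egfl7, is an endothelial gene and is described with that list.

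**Figure D3:**
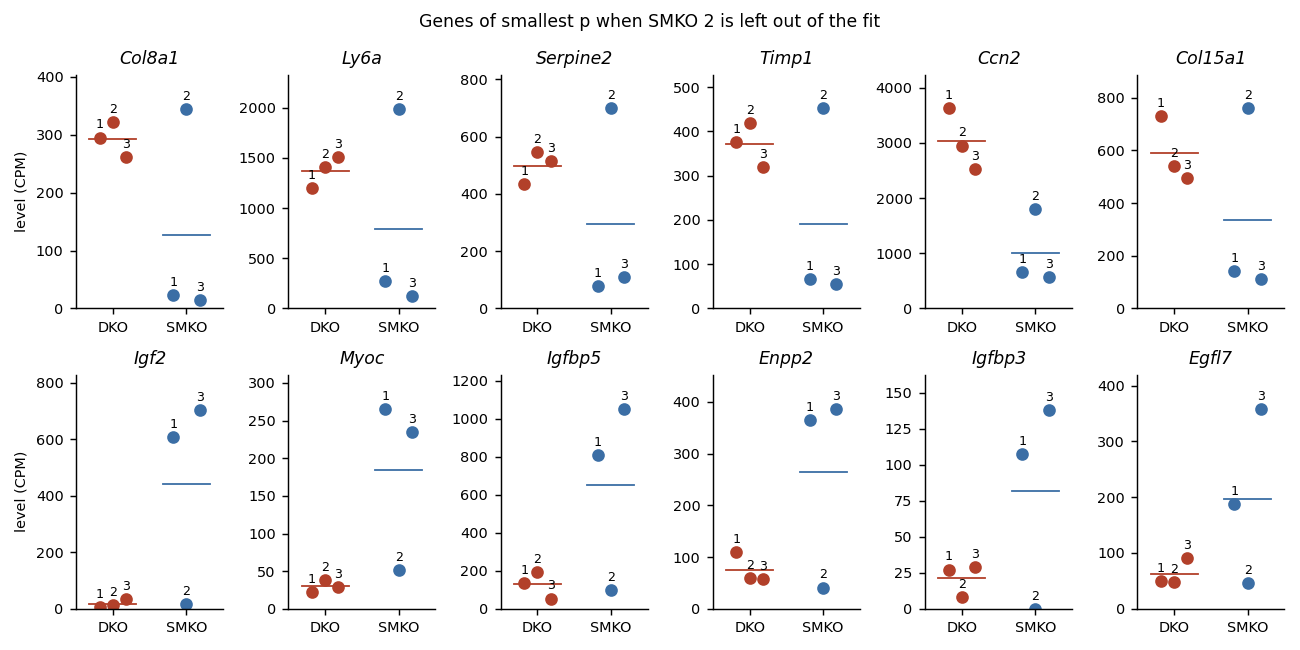
Level in CPM of the 6 genes of smallest p higher (top row) and lower (bottom row) in DKO when SMKO 2 is left out of the fit. Each point is 1 library with its replicate number, the line is the mean of all 3 libraries, and axes start at 0. SMKO 1 and SMKO 3 lie on the same side of all DKO libraries for each gene, though apart from each other for Egfl7, and SMKO 2 lies with or beyond DKO for every gene shown except Ccn2 and Myoc, where it lies between.

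The place of SMKO 2 among the 128 genes called without it is given as a description. Because SMKO 2 was left out for lying near DKO, a place near DKO in these genes restates that and supports nothing further. On log2(CPM + 1), with the mean of SMKO 1 and 3 set at 0% and the mean of DKO at 100%, the median position of SMKO 2 was 106%. It lay past the midpoint toward DKO in 122 of the 128 genes, within the DKO range in 51 and beyond that range in 51. It lay between SMKO 1 and SMKO 3 in 4. These places rest on TMM-scaled CPM, and the TMM factor of SMKO 2, 0.739, raises its levels relative to scaling by library total alone. For the 75 higher genes the median position was 112%, and for the 53 lower genes it was 95.6%. Among these 128 genes the level in SMKO 1 fell within the range of the 6 ECKO and CTRL libraries in 70, that in SMKO 3 in 53 and that in SMKO 2 in 23. The same held for 11, 6 and 26 genes in DKO 1, 2 and 3, and in 97 genes all 3 DKO libraries lay outside that range. These genes were chosen for a difference between DKO and SMKO 1 and 3. Such counts were not made over all tested genes, so they do not show which group departed. With SMKO 2 kept, 28 of the 75 and 47 of the 53 genes had an unadjusted p under 0.05.

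**Figure D4:**
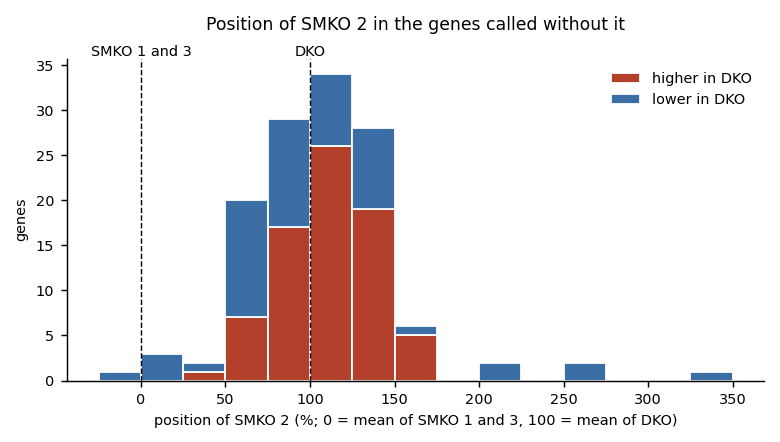
Number of genes by the position of SMKO 2 (%) for the 128 genes called without it, on a scale where 0 is the mean of SMKO 1 and 3 and 100 the mean of DKO, from log2(CPM + 1). Stacked bars show genes higher and lower in DKO. The distribution centres near the DKO mean (median 106%).

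Elastic fibre genes, which encode the assembly that fibulin-4 serves, were split in direction. Of 19 tested members none passed with all libraries, with 8 higher and 11 lower and a median log2 fold change of -0.02, against 0.02 over all tested genes. At an unadjusted p under 0.05, 4 were higher and 3 lower. Eln, elastin itself, stood at 472, 558 and 377 CPM in DKO 1, 2 and 3, against 174, 421 and 193 CPM in SMKO 1, 2 and 3, with a log2 fold change of 0.84 ± 0.29 (adjusted p = 0.539). Without SMKO 2, 6 of 20 tested members passed as higher and 2 as lower, where 1.68% of all genes passed. The higher members, named after their values were seen, were Eln (log2 fold change 1.38 ± 0.28), Ltbp2 (1.66 ± 0.29), Fbn1 (1.56 ± 0.33), Fbln5 (1.20 ± 0.32), Loxl2 (1.18 ± 0.28) and Lox (2.26 ± 0.61). They encode elastin, a latent TGF-beta binding protein, fibrillin-1, fibulin-5 and crosslinking enzymes of the lysyl oxidase family. The lower members were Efemp1, which encodes fibulin-3 (-1.76 ± 0.39), and Mfap4, a microfibril-associated protein (-1.21 ± 0.28). Efemp1 measured 22.7, 25.9 and 37.3 CPM in the DKO libraries, against 107, 20.5 and 55.2 CPM in the SMKO libraries. The list summed to 9952, 8117 and 10512 CPM in DKO 1, 2 and 3, against 8321, 9911 and 7729 CPM in SMKO 1, 2 and 3, and the groups overlapped.

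Fibrillar collagens and their assembly proteins were mostly higher. Of 22 tested members 19 were higher in DKO with all libraries, where 3286 of all 6296 tested genes were higher, with a median log2 fold change of 0.44, and 0 passed. Without SMKO 2, 7 of 24 passed, all higher, where 0.983% of all genes passed as higher. These were Col1a1 (1.37 ± 0.32), Col5a2 (1.16 ± 0.26), Col5a3 (3.26 ± 0.89), Col6a1 (1.08 ± 0.26), Col16a1 (1.36 ± 0.32), Sparc and the procollagen processing enhancer Pcolce (1.09 ± 0.30), each as a log2 fold change ± SE. The list summed to 30473, 23625 and 31614 CPM in DKO 1, 2 and 3, against 12862, 33661 and 12270.4 CPM in SMKO 1, 2 and 3. In TMM-scaled CPM, SMKO 2 held the highest sum of the 6 libraries. Scaled by library total alone, its sum lay below that of every DKO library and above those of SMKO 1 and 3. SMKO 1 and 3 lay with the 6 ECKO and CTRL libraries, which ran from 9788 to 17255 CPM. Sparc alone made up 11732, 7506 and 12854 CPM of the DKO sums, against 2731, 15775 and 2567 CPM of the SMKO sums.

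Basement membrane, matricellular and protease genes showed the same arrangement of libraries. The basement membrane list summed to 3183, 2953 and 2816 CPM in DKO 1, 2 and 3, against 1528, 3409.8 and 1794 CPM in SMKO 1, 2 and 3. It had 13 tested members, a median log2 fold change of 0.39 with all libraries and 0 calls, and 4 calls without SMKO 2, the higher Col4a1, Col4a2, Col15a1 and Col18a1. For these lists too, 0.983% of all genes passed as higher and 0.695% as lower without SMKO 2. Col4a1 and Col4a2 overlap on opposite strands, so their counts are not independent. The matricellular list summed to 18106, 14522 and 13232 CPM in DKO 1, 2 and 3, against 7562, 16756 and 7274 CPM in SMKO 1, 2 and 3. Of its 17 members tested without SMKO 2, Ccn2, the antiangiogenic Thbs1 (1.28 ± 0.32) and Smoc1 (1.99 ± 0.41) were higher and Myoc was lower. Matrix proteases and their inhibitors summed to 27872, 18662 and 24166 CPM in DKO 1, 2 and 3, against 12777, 31946 and 10089.6 CPM in SMKO 1, 2 and 3, with 4 of 20 tested members higher without SMKO 2, Timp1, Timp3 (1.76 ± 0.35), Serpine2 and the lysosomal protease Ctsd (1.26 ± 0.33).

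**Figure D5:**
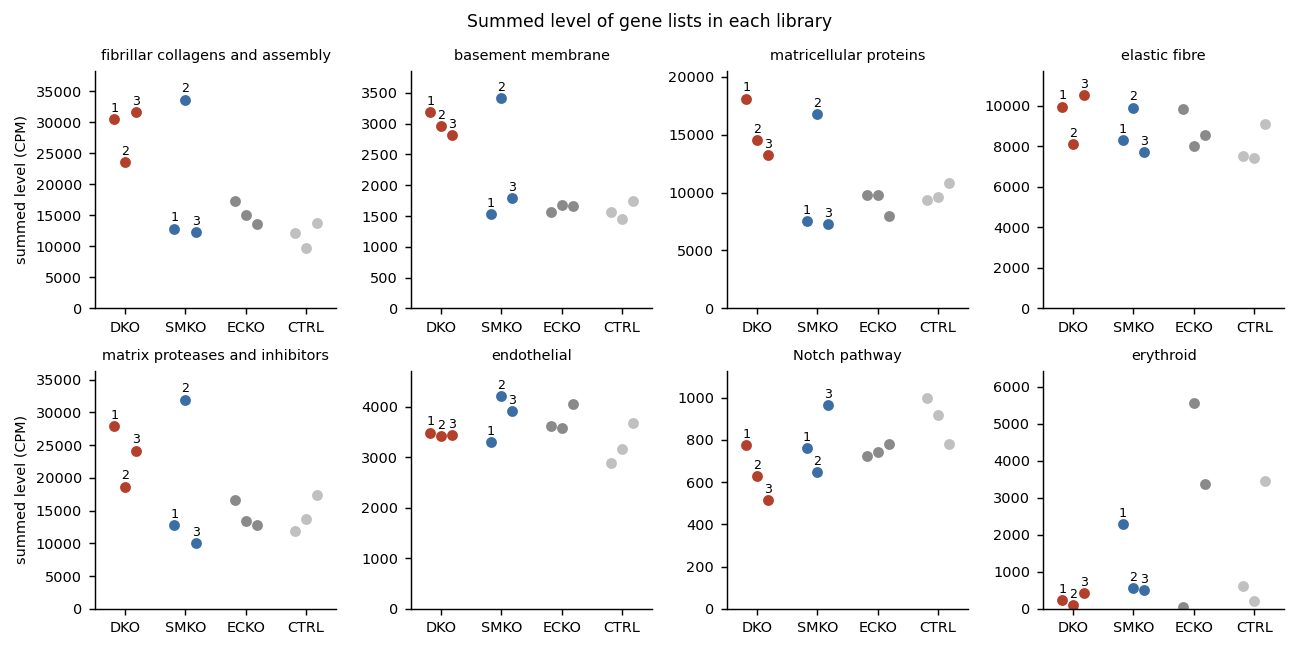
Summed level in CPM of 8 gene lists in each of the 12 libraries, by group, with replicate numbers on DKO and SMKO points. Axes start at 0. SMKO 2 lies with DKO in the collagen, basement membrane, matricellular and protease lists, while the endothelial, Notch and elastic fibre sums of DKO and SMKO overlap.

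Endothelial genes mark the cells in which, as the study is known, DKO but not SMKO carries the deletion, and they gave no call with all libraries. Of 20 tested members 7 were higher and 13 lower, with a median log2 fold change of -0.30, and 4 had an unadjusted p under 0.05, all lower. The summed level was 3487, 3413 and 3438 CPM in DKO 1, 2 and 3, against 3302, 4216 and 3919.9 CPM in SMKO 1, 2 and 3, and the groups overlapped. Egfl7, a secreted factor of endothelial cells, stood at 49.9, 47.8 and 91.2 CPM in DKO 1, 2 and 3, against 187, 46.2 and 359 CPM in SMKO 1, 2 and 3, with a log2 fold change of -1.50 ± 0.55 (adjusted p = 0.672). Emcn, the endothelial sialomucin endomucin, stood at 31.8, 79.7 and 70.5 CPM in the DKO libraries, against 155, 46.2 and 179 CPM in the SMKO libraries (-0.95 ± 0.36, adjusted p = 0.610). Kdr, the receptor for vascular endothelial growth factor, stood at 13.6, 19.9 and 12.4 CPM in the DKO libraries, against 45.9, 20.5 and 41.4 CPM in the SMKO libraries (-1.20 ± 0.45, adjusted p = 0.605). Prox1, a homeobox factor of lymphatic cells that is also made in valve endothelium, stood at 9.08, 5.97 and 16.6 CPM in the DKO libraries, against 39.1, 15.4 and 55.2 CPM in the SMKO libraries (-1.82 ± 0.60, adjusted p = 0.525). SMKO 2 was the lowest SMKO library for each of these 4 genes.

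Without SMKO 2, 4 of 21 endothelial members passed, in both directions, where 0.983% of all genes passed as higher and 0.695% as lower. Egfl7 and Emcn fell, with log2 fold changes of -1.99 ± 0.35 and -1.34 ± 0.31, and Podxl and Sox17 rose, with 1.45 ± 0.32 and 7.13 ± 1.58. Podxl, the sialomucin podocalyxin, measured 422, 498 and 547 CPM in the DKO libraries, against 172, 791 and 193 CPM in the SMKO libraries. Sox17, an endothelial transcription factor, had counts of 7, 32 and 7 against 0, 14 and 0 for DKO 1 to 3 against SMKO 1 to 3. Its fitted fold is set by the zeros in SMKO 1 and SMKO 3 and is no bound. Of the 7 defining endothelial markers 6 were lower in DKO with all libraries (median -0.68), and they summed to 545, 675 and 908 CPM in DKO 1, 2 and 3, against 961, 734 and 1422 CPM in SMKO 1, 2 and 3. None of the 7 passed with all libraries, and the sums of DKO and SMKO overlapped. In leaflet RNA a difference in the number of endothelial cells cannot be told from a difference in RNA per cell.

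Notch signalling genes gave no call with all libraries among 11 tested members (median -0.11). Without SMKO 2, Notch1 alone of 12 passed, with a log2 fold change of -1.34 ± 0.31 (adjusted p = 0.0175). Over all genes, 0.695% passed as lower in that fit and 0.983% as higher. The ligand Jag1 and the targets Hey1, Hey2 and Hes1 had log2 fold changes of 0.09, -0.38, -0.49 and 0.00 with all libraries, none with an unadjusted p under 0.05. Among genes linked to YAP and TEAD, Ccn2 passed as higher without SMKO 2, as did 0.983% of all genes, and the other 14 tested members did not. Tead1 measured 86.3, 69.7 and 74.6 CPM in the DKO libraries, against 42.5, 35.9 and 55.2 CPM in the SMKO libraries, and Tead2 measured 9.08, 11.9 and 29.0 CPM in the DKO libraries, against 37.4, 35.9 and 124 CPM in the SMKO libraries, with log2 fold changes of 0.84 ± 0.34 and -1.61 ± 0.53 (adjusted p = 0.672 and 0.525). Tead1 and Tead2 encode the DNA-binding partners of YAP.

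The 250 bases before the RefSeq start of each gene were searched for the core TEAD motif GGAATG and the AP-1 motif TGACTCA on both strands, as a description only. Of the 75 higher genes 49 matched the promoter table, with 62 starts, and GGAATG occurred in 3 of these (4.84%). Of the 53 lower genes 43 matched, also with 62 starts, and 9 held it (14.5%), against 12.6% of all 32851 promoters. TGACTCA occurred in 4 of the starts of higher genes (6.45%) and in 1 of those of lower genes (1.61%), against 4.46% of all. Timp1 and Notch1 are shown because each was called without SMKO 2, 1 in each direction, and holds GGAATG or its reverse complement CATTCC, in capitals. The Timp1 window is chrX:20869916-20870165 on the plus strand and the Notch1 window chr2:26503823-26504072 on the minus strand, both 5′ to 3′ in the direction of transcription and both from RefSeq on GRCm38.p6.
Timp1: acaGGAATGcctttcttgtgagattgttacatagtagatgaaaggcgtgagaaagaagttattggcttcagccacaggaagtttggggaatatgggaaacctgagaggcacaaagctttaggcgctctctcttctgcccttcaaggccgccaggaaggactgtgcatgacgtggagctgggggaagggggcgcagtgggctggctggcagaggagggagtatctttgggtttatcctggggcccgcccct
Notch1: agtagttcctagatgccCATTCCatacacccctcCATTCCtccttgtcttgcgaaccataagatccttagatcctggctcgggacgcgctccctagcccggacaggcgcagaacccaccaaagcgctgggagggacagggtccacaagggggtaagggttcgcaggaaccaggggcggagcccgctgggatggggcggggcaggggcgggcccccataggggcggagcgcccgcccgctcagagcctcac

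Several lists gave no call in either fit. In the list of chondrogenic and mineralization genes 6 of 8 tested members were higher with all libraries, with a median log2 fold change of 0.44, and 8 of 9 were higher without SMKO 2, with a median of 1.17, 6 of them at an unadjusted p under 0.05. The list summed to 27799, 26958 and 32165 CPM in DKO 1, 2 and 3, against 12433, 72652 and 15997 CPM in SMKO 1, 2 and 3. SMKO 2 held by far the highest sum, most of it from Mgp, matrix Gla protein, an inhibitor of calcification. Mgp stood at 25329, 22093 and 26095 CPM in DKO 1, 2 and 3, against 9959, 68108 and 11815 CPM in SMKO 1, 2 and 3, with a log2 fold change of -0.29 ± 0.55 with all libraries (adjusted p = 0.979) and 1.18 ± 0.33 without SMKO 2 (adjusted p = 0.0625). Spp1, the mineral-binding protein osteopontin, stood at 449, 1038 and 643 CPM in DKO 1, 2 and 3, against 13.6, 1089 and 193 CPM in SMKO 1, 2 and 3, with the lowest level in SMKO 1, and its log2 fold change was 0.72 ± 1.24 with all libraries (adjusted p = 0.979).

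Heat shock and unfolded protein response genes were mostly higher, with 13 of 18 tested members higher and a median of 0.46 with all libraries. In 6 of the 18 the groups did not overlap, all higher, where 5.72% of all genes were so, and Pdia6, a disulfide isomerase, had the smallest p, at 209, 195 and 133 CPM in the DKO libraries, against 85.1, 123 and 82.8 CPM in the SMKO libraries (log2 fold change 0.89 ± 0.27, adjusted p = 0.463). The chaperone gene Hyou1 and the small heat shock protein gene Cryab are outside this list. Without SMKO 2, edgeR's test called both higher, with log2 fold changes of 2.25 ± 0.57 and 1.64 ± 0.31 (adjusted p = 0.0287 and 0.00208). Of 15 immediate early genes 11 were higher (median 0.30), among them Nr4a2 at 68.1, 108 and 62.2 CPM in the DKO libraries, against 35.7, 46.2 and 55.2 CPM in the SMKO libraries (1.00 ± 0.34, adjusted p = 0.527). The contractile list had 10 tested members and a median of 0.16. Its smooth muscle actin gene Acta2 stood at 232, 221 and 191 CPM in DKO 1, 2 and 3, against 117, 154 and 110.4 CPM in SMKO 1, 2 and 3, with no overlap between groups and a log2 fold change of 0.74 ± 0.26 (adjusted p = 0.527). Complement genes were lower in 10 of 12 (median -0.09).

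Markers of other cells also differed between libraries. The haemoglobin genes, markers of erythroid cells, were lower in DKO in 4 of 4 tested members (median -2.45, none with an unadjusted p under 0.05). The erythroid markers summed to 222, 99.6 and 427 CPM in DKO 1, 2 and 3, against 2275, 549 and 497 CPM in SMKO 1, 2 and 3. The DKO libraries lay below all SMKO libraries. These sums differed widely within the other groups, at 41.0, 5561 and 3352 CPM in ECKO 1, 2 and 3 and 618, 202 and 3425 CPM in CTRL 1, 2 and 3. The DKO sums lay within that range. Macrophage markers were lower in 6 of 6 (median -0.42) and summed to 872, 432 and 1003 CPM in DKO 1, 2 and 3, against 929, 1089 and 690.1 CPM in SMKO 1, 2 and 3. Melanocyte markers summed to 849, 370.4 and 377 CPM in DKO 1, 2 and 3, against 549.5, 965 and 193 CPM in SMKO 1, 2 and 3, cardiomyocyte markers to 77.2, 59.7 and 62.2 CPM in DKO 1, 2 and 3, against 35.7, 97.6 and 96.6 CPM in SMKO 1, 2 and 3, and vascular smooth muscle markers to 299.6, 335 and 290.3 CPM in DKO 1, 2 and 3, against 229.7, 179.7 and 138 CPM in SMKO 1, 2 and 3. All 6 libraries together held a count of every marker in these lists, although Alas2, Myh6 and Actc1 had none in DKO and Cnn1 and Mb none in SMKO. Mitochondrially encoded genes were lower in 13 of 13 (median -0.49). The part of these differences in the results above was not tested, apart from the fits with the mitochondrial share and with Y-linked counts as covariates.

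Whether endothelial deletion acted differently on the 2 backgrounds was asked with the interaction, (DKO − SMKO) − (ECKO − CTRL). It called 2 of 6296 genes (0.0318%), Id4 higher and Fmnl2 lower (0.0159% each). Id4, a dominant-negative regulator of helix-loop-helix factors and a BMP target, stood at 490.3, 313 and 170.0 CPM in DKO 1, 2 and 3, against 180.3, 128 and 193 CPM in SMKO 1, 2 and 3. In the other pair it stood at 87.0, 115 and 75.8 CPM in ECKO 1, 2 and 3, against 261, 255 and 319 CPM in CTRL 1, 2 and 3. Its log2 fold change was 0.96 ± 0.31 in DKO against SMKO (adjusted p = 0.509) and -1.54 ± 0.30 in ECKO against CTRL (adjusted p = 0.111), and the difference was 2.50 ± 0.43 (adjusted p = 0.0105). Fmnl2 stood at 46.1, 75.9 and 94.1 CPM in ECKO 1, 2 and 3, against 32.1, 35.5 and 37.1 CPM in CTRL 1, 2 and 3. Its log2 fold change was 1.13 ± 0.32 there (adjusted p = 0.883), and the difference was -2.78 ± 0.49 (adjusted p = 0.0105). ECKO against CTRL called 0 of 6296 genes (0%; 273 at an unadjusted p under 0.05, 4.34%), and without SMKO 2 the interaction called 62 of 7627 (0.813%), 31 higher (0.406%) and 31 lower (0.406%). Both calls were lost without CTRL 1, ECKO 3, SMKO 1, DKO 1 or DKO 2, and that of Fmnl2 also without ECKO 2.

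The authors' deposited table gives a signed fold and a p for DKO with SMKO over 16588 genes. In the authors' deposited table the p was under 0.05 for 708 of them, 381 higher and 327 lower, and for 493 of the 6296 genes tested here. Whether that p was adjusted is not given in the sources used here. For Ccn2 the authors' deposited table gives a fold of 3.05 and for Col8a1 2.27, and for Igf2 it gives -23.5, where a minus sign marks a lower level in DKO.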

How the data were processed

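Whole-number total counts per gene were deposited by the authors for 12 libraries, per the file headers, and every test used them. The deposited table also holds TPM (transcripts scaled for length by the authors, per the file headers), on which no result rests. A signed fold and a p-value from the authors' own comparison stand in the deposited table, with no test named. The submitters' processing notes name GRCm39; how reads were aligned and counted, and whether by strand, is not stated in these sources. The library kit keeps no strand, so overlapping genes (Alas2, Col4a1, Col4a2, Cryab, Ctsd, Efemp2, Egfl7, Fbn1, Fdps, Igf2, Igfbp7, Mb, Mfap4, Myoc, Pcolce, Pdia6, Rnf214, Tead2, Timm8b, Timp3 and Trf among those named) are uncertain.

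Genes were kept by filterByExpr (minimum count 10), scaled by TMM and tested with edgeR 4.0.16 (R 4.3.3; quasi-likelihood F test, robust spread) in 1 fit of all 12 libraries, with Benjamini-Hochberg adjustment and a threshold of 0.05. Each SE was computed as |log2 fold change| divided by √F. DESeq2 1.42.0 and limma 3.58.1 were alternatives. The fit was checked on simulated counts. Totals of 74827 to 615665 counts limit precision, and intervals cover counting error only. Libraries of a group differed by more than sampling noise (chi-square per degree of freedom 2.38 to 9.64), so none were merged. Beside Efemp2, the genes named were the 12 of smallest p a direction that did not overlap at a mean of at least 20 CPM, the 10 of smallest p a direction called without SMKO 2, those called by DESeq2, the 3 of smallest p of each list, and cell type markers; predicted gene models were left out, and some genes that the rule names are not reported here. The comparison, the lists and the naming rule were chosen with earlier results of these data known.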

Additional observations from a re-analysis of the deposited data

Results flagged for a closer look

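The effect of endothelial deletion differed between the smooth-muscle-deleted and the intact background for 2 genes, by edgeR's test of the interaction (DKO − SMKO) − (ECKO − CTRL). The difference was -2.78 on the log2 scale for Fmnl2 (adjusted p = 0.0105). It was lower in DKO than in SMKO and higher in ECKO than in CTRL, in 3 of 3 libraries against 3 of 3 in each pair. The difference was 2.50 for Id4 (adjusted p = 0.0105), which was lower in ECKO than in CTRL in 3 of 3 libraries against 3 of 3, while DKO and SMKO overlapped. Leaving out 1 library in turn kept the difference of Fmnl2 between -3.00 and -2.47, with an adjusted p of up to 0.561, and that of Id4 between 2.13 and 2.83, with an adjusted p of up to 0.125.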

How the results depend on the processing

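With all libraries, the count of 0 higher and 0 lower genes became 11 and 21 with no low-count filter, 1 and 2 with DESeq2 and 21 and 3 with limma-voom with library weights. It became 0 and 1 with the mitochondrial share as covariate. It stayed 0 and 0 under the other scalings, the stricter filter, the 6 libraries alone, the depth and Y-linked covariates and limma-voom. Leaving out 1 library in turn gave 0 to 75 higher and 0 to 53 lower, the upper values without SMKO 2. The interaction count of 2 became 28 with no filter, 0 with a mean of at least 30 counts, 1 with DESeq2 and 1 with limma-voom, and 0 to 62 over left-out libraries.

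Without SMKO 2, the 75 higher and 53 lower genes became 121 higher with no filter, 40 and 31 with a mean of at least 30 counts, 48 and 24 with DESeq2, 46 and 27 with library weights, 41 and 26 with the 5 libraries alone, and 28 lower with Y-linked counts as covariate. Leaving out a further library gave 25 to 110 higher and 16 to 60 lower. All settings without SMKO 2 were chosen after the data were seen.

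With the replicate number as a block, 0 genes were higher and 0 lower with all libraries, and 89 were higher and 58 lower without SMKO 2. Same-numbered DKO and SMKO libraries correlated at -0.11, 0.05 and 0.14 in their deviations, and differently numbered ones at -0.24 to 0.25. The labels give no pairing, and so few weak correlations cannot decide whether the numbers pair the libraries.

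Over left-out libraries the log2 fold change turned sign for Bmp2 (-0.67 to 2.61), Col18a1 (-0.0922 to 1.41), Ctsd (-0.12 to 1.26), Inhba (-0.0032 to 1.31) and Podxl (-0.10 to 1.45), none called with all libraries. The negative values came without SMKO 1, and for Bmp2 and Ctsd also without SMKO 3. The cause was not tested. Over 91 genes and all settings, 2106 of 2207 values kept direction and side of the threshold and 94 passed only under the alternative; without SMKO 2, over 93 genes, 1915 of 2248 did so and 298 lost the call with the same direction. Depth limits low genes most in SMKO 3, where 1 count was worth 13.8 CPM.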

Other observations

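Genes of other processes were among those called without SMKO 2, named here after their values were seen. Npy, a peptide of sympathetic nerves, Cryab, a small heat shock protein, Srgn, the granule proteoglycan serglycin, and Vcam1, a leukocyte adhesion molecule, were higher, with log2 fold changes of 1.78, 1.64, 1.67 and 1.25. Pdgfra, a growth factor receptor of valve interstitial cells, Txnip, an inhibitor of thioredoxin, and Ghr, the growth hormone receptor, were lower, with log2 fold changes of -1.71, -1.45 and -1.32. Pdgfra was the 1 lower gene of the 8 valve interstitial markers without SMKO 2. The other 7 were higher, and the median log2 fold change of the 8 was 0.77. The bone morphogenetic protein gene Bmp2 stood at 136, 114 and 62.2 CPM in DKO 1, 2 and 3, against 17.0, 252 and 13.8 CPM in SMKO 1, 2 and 3, so that SMKO 2 exceeded every DKO library. Its log2 fold change was 0.20 with all libraries (adjusted p = 1.00) and 2.61 without SMKO 2 (adjusted p = 0.0109), by edgeR's quasi-likelihood test.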
